A study of Rattus norvegicus with 3 samples.

Results

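Vessel endothelial genes and angiogenic signals were followed in rat condylar tissue through 8 genes, Cdh5, Emcn, Kdr, Flt1, Tie1, Egfl7, Vegfa and Angpt1. The 8 genes, out of 20896 gene names in the tables, were chosen by their measured levels in the clusters of these libraries, which were known before, so their levels are a description and carry no test. All 8 were listed in every library. RNA of single cells was sequenced from cartilage and subchondral bone of the mandibular condyle of wild type SD rats, in 3 libraries that each pooled 16 condyles of 8 rats. Adeno-associated virus (AAV) was injected into the temporomandibular joint in all 3 groups. The sham library came from sham rats with Vector AAV, the UAC library from rats with unilateral anterior crossbite (UAC, a changed front bite that overloads the joint) and Vector AAV, and the UAC + miR-330 library from rats with UAC and miR-330 AAV. UAC lasted 8 weeks. The age of the rats and the promoter of the vectors are not given in the sources used here. The rats of a pool cannot be told apart, and with 1 library per condition no difference below has a replicate check.

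Endothelial cells line blood vessels and are held together by VE-cadherin, the product of Cdh5, while endomucin, from Emcn, coats their luminal surface. They take up vascular endothelial growth factor (VEGF) through the receptors of Kdr and Flt1 and angiopoietins through the receptor of Tek, whose relative Tie1 modulates it. Articular cartilage has no vessels, whereas the bone and marrow below it are rich in them, and VEGF draws vessels into calcified cartilage and bone.

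The deposited tables give a mean count for each gene in each cluster, and dividing it by the smallest mean above 0 of its column returned whole UMIs (unique molecular identifiers, each standing for 1 captured RNA molecule) for 100% of the values. Sham held 77668015 UMIs, UAC 92629658 and UAC + miR-330 97255383. The authors' software had made 15, 18 and 19 clusters in them, each library alone. Levels are UMIs per 1000000 UMIs of a library or cluster (CPM) with exact Poisson 95% intervals, shares have exact binomial (Clopper-Pearson) 95% intervals, and both cover counting error only. For a count of 0 a floor of 3 UMIs was used, which is 0.0386, 0.0324 and 0.0308 CPM for sham, UAC and UAC + miR-330 as a whole. The exact Poisson interval of a 0 reaches higher, to 0.0398 CPM in UAC and 0.0379 CPM in UAC + miR-330. Folds given as at least a value use the floor and the other count without its interval, so they are not 95% limits. Barcodes shared between libraries were not analysed here, since the tables hold sums over clusters. Across a whole library or cluster, fewer cells of a type and less RNA per cell cannot be told apart.

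Clusters are called by a gene that they hold at the highest level of their library. The cluster highest in Col2a1, the cartilage collagen, was cluster 12 in sham, 16 in UAC and 17 in UAC + miR-330. A marker was counted as enriched in a cluster with at least 10 UMIs and at least 2-fold above all other clusters together. Chondrocyte markers were enriched in the Col2a1 clusters, with 18, 17 and 18 of 20 in sham, UAC and UAC + miR-330, and so were 9, 10 and 10 of 10 osteogenic markers. The cluster highest in Dntt, the DNA polymerase of early lymphocytes, was cluster 11 in sham, 15 in UAC and 14 in UAC + miR-330, and 5 of 12 B lineage markers were enriched in each of them, with 6 of 11 T and NK cell markers besides in sham. The cluster highest in Csf1r, the macrophage growth factor receptor, was cluster 15, 9 and 10 in the same order, with 13, 12 and 12 of 13 macrophage markers enriched. The cluster highest in Cxcr2, a neutrophil receptor, was cluster 8, 8 and 6. The cluster highest in Car1, a carbonic anhydrase of red cell precursors, was cluster 13, 11 and 11. The cluster highest in Siglech, a surface gene of plasmacytoid dendritic cells, was cluster 14 in UAC and 8 in UAC + miR-330. In the sham library the cluster highest in Siglech was cluster 15, the same as the one highest in Csf1r. Of the cell types named in the labels, chondrocyte markers were found, but no cluster had more than 2 of 9 osteoclast markers enriched. Dcstamp, a gene of osteoclast fusion, had 0 UMIs in the sham and UAC + miR-330 libraries, where the other 8 osteoclast markers were above 0. In UAC all 9 were above 0. Osteoclast markers summed to 303.6, 299.4 and 270.3 CPM in sham, UAC and UAC + miR-330, with Acp5 the most abundant at 149, 112 and 94.5 CPM.

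No cluster held endothelial markers alone. Of 20 endothelial markers 18 were matched to the tables, and Pecam1 and Robo4 were not analysed here. In the sham library 13 of the 18 were enriched in the Col2a1 cluster and 4 in the Dntt cluster. In the UAC library the Col2a1 cluster had 2 enriched and the Dntt cluster 10. In the UAC + miR-330 library the Col2a1 cluster again had 2 and the Dntt cluster 16. The Dntt cluster thus held more endothelial markers than the Col2a1 cluster in both UAC libraries, and fewer in the sham library. Stem and progenitor markers were enriched beside them in the Dntt cluster, 3 of 12 in sham, 6 in UAC and 6 in UAC + miR-330. Clusters were made in each library alone, so clusters led by the same gene need not hold the same cells.

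The shares of each marker's UMIs by cluster come from the same counts. They leaned to the Col2a1 cluster in sham and to the Dntt cluster in both UAC libraries, though less so in UAC. Among the 18 endothelial markers with at least 10 UMIs in the sham library, 12 had at least 50% of their UMIs in the Col2a1 cluster, with a median share of 77.1%, and 2 (Egfl7 and Erg) in the Dntt cluster. Among 14 such markers in the UAC library, 2 (Cldn5 and Clec14a) had at least 50% in the Col2a1 cluster, where the median share was 2.02%. In the Dntt cluster 4 of them had at least 50%, and the median share was 31.5%. Most of these 14 had at least 50% in neither cluster. Among 17 in the UAC + miR-330 library, 0 had at least 50% in the Col2a1 cluster, and 12 did in the Dntt cluster, where the median share was 55.6%. Erg, an ETS transcription factor of endothelium that early blood cells also use, was the most abundant endothelial marker, with 40.7 CPM in sham, 40.9 in UAC and 47.8 in UAC + miR-330. The summed endothelial markers reached 80.5, 70.8 and 87.6 CPM over the libraries, and all 18 were above 0 in each. Markers of mural cells, the pericytes and smooth muscle of the vessel wall, summed to 50.5, 30.9 and 31.2 CPM, but most of this was Cspg4, with 42.3, 21.9 and 23.8 CPM. The pericyte gene Rgs5 had 6, 6 and 5 UMIs in sham, UAC and UAC + miR-330, and the muscle filament gene Des had 0, 1 and 1. Other mural markers had more, with 186, 217 and 148 UMIs for Pdgfrb, 169, 221 and 251 for Myh11 and 155, 276 and 172 for Tagln.

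**Figure D1:**
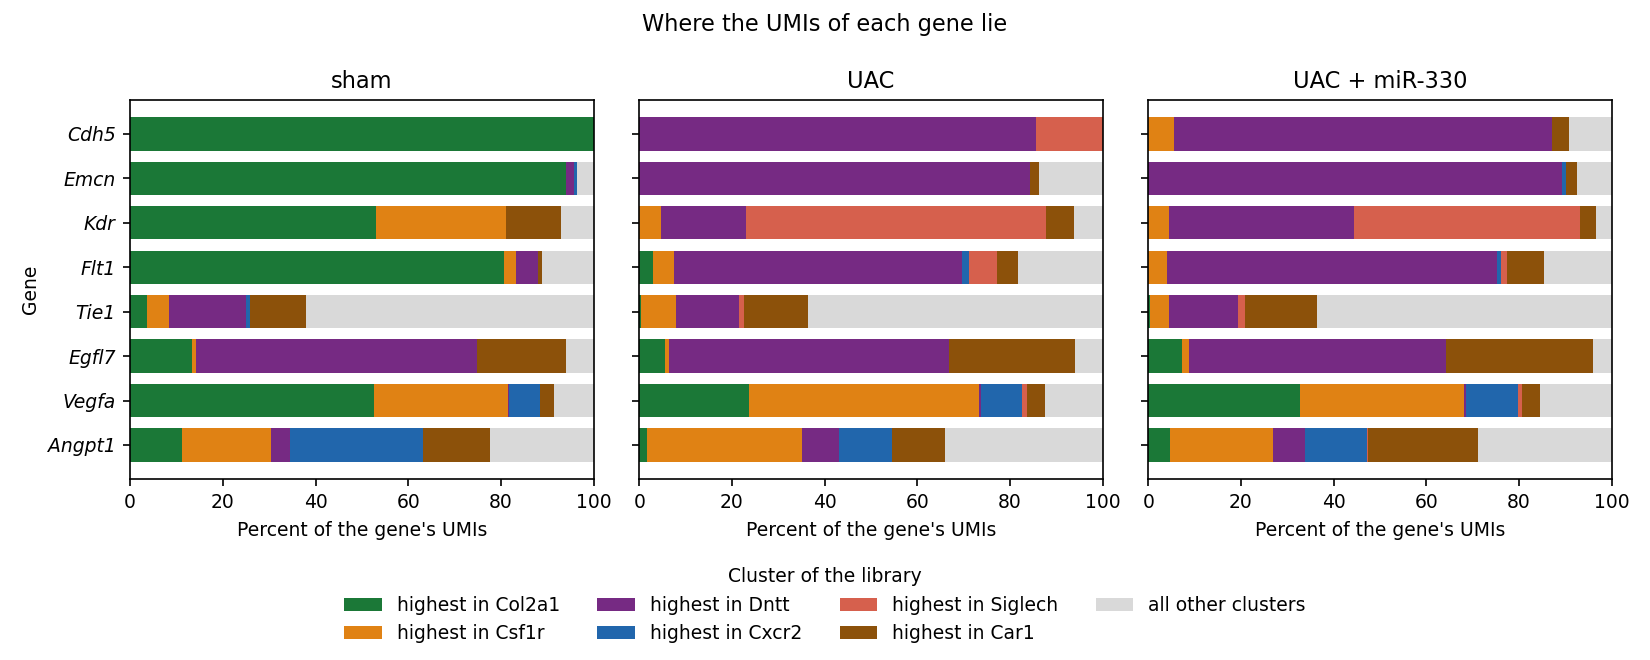
Share of each gene's UMIs (percent, horizontal axis) for the 8 genes in sham, UAC and UAC + miR-330. Bars are split by the clusters highest in Col2a1, Dntt, Csf1r, Siglech, Cxcr2 and Car1 and all other clusters. Sham cluster 15 is highest in both Csf1r and Siglech and is drawn under Csf1r. Cdh5 lay to 100% in the Col2a1 cluster in sham and to 85.7% (UAC) and 81.5% (UAC + miR-330) in the Dntt cluster.

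Among the ligands, Vegfa (ENSRNOG00000019598) encodes the main VEGF, the growth factor that starts vessel sprouting. In the sham library its level was highest in the Csf1r cluster, at 119 CPM [108.0–132], and next in the Col2a1 cluster, at 82.0 CPM [76.2–88.2]. In the UAC library the Csf1r cluster had 169.9 CPM [159.5–181], followed by the Cxcr2 cluster with 80.4 CPM [69.0–93.1] and the Col2a1 cluster with 79.8 CPM [72.8–87.3]. For UAC + miR-330 the order was the Csf1r cluster at 105 CPM [96.9–113], the Col2a1 cluster at 98.4 CPM [90.5–107] and the Cxcr2 cluster at 80.4 CPM [69.6–92.5]. The Csf1r cluster stood first with its interval apart from the next in the sham and UAC libraries, but not in the UAC + miR-330 library. The Cxcr2 and Col2a1 clusters overlapped in their intervals in both UAC libraries. The Cxcr2 cluster of the sham library was far lower, at 30.8 CPM [24.9–37.7]. Over all clusters of a library the median level was 2.22, 4.30 and 4.37 CPM in sham, UAC and UAC + miR-330.

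By UMIs, 52.7% [50.1–55.3] of Vegfa in the sham library lay in the Col2a1 cluster and 28.8% [26.4–31.2] in the Csf1r cluster. In the UAC library the Csf1r cluster came first, with 49.6% [47.3–51.8] there and 23.7% [21.9–25.6] in the Col2a1 cluster. In the UAC + miR-330 library the Csf1r cluster held 35.4% [33.2–37.7], the Col2a1 cluster 32.7% [30.5–34.9] and the Cxcr2 cluster 11.1% [9.63–12.6]. These shares weigh large clusters more, and CPM values do not. With clusters weighed alike the Csf1r cluster came first in sham too.

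Angpt1 (ENSRNOG00000005854) encodes angiopoietin 1, which stabilises vessels through the receptor of Tek and is also made by blood stem cells. In the sham library its highest levels were 77.4 CPM [67.8–87.9] in the Cxcr2 cluster and 46.4 CPM [39.4–54.2] in the Csf1r cluster. In the UAC library they were 117 CPM [109–127] in the Csf1r cluster, 107 CPM [93.4–121] in the Cxcr2 cluster and 66.6 CPM [59.2–74.6] in cluster 7. Cluster 7 had 9 of 14 neutrophil markers enriched. For UAC + miR-330 the Cxcr2 cluster had 174 CPM [158–192], cluster 15 had 143 CPM [128–160.3] and the Csf1r cluster had 118 CPM [109.6–127]. Cluster 15 had 7 of 14 neutrophil markers enriched. The first and second clusters of this order had overlapping intervals in both UAC libraries and intervals apart in sham.

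Angpt1 was also in the Dntt cluster, at 8.98 CPM [6.22–12.5] in sham, 49.4 CPM [42.1–57.6] in UAC and 59.9 CPM [52.2–68.5] in UAC + miR-330. In the Car1 cluster it had 10.5 CPM [8.70–12.6], 17.0 CPM [14.9–19.3] and 49.2 CPM [45.8–52.9] in the same order. The Col2a1 cluster gave it 10.2 CPM [8.22–12.5], 5.85 CPM [4.08–8.14] and 25.5 CPM [21.6–29.9]. The Car1 cluster is a large one, and it held 14.5%, 11.4% and 23.8% of all Angpt1 UMIs of sham, UAC and UAC + miR-330. The Csf1r cluster held 19.1%, 33.5% and 22.3%, and the Cxcr2 cluster 28.7%, 11.5% and 13.4%. Angpt1 RNA was thus spread over blood cell clusters in every library, and the Col2a1 cluster held 11.2%, 1.70% and 4.73% of it.

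**Figure D2:**
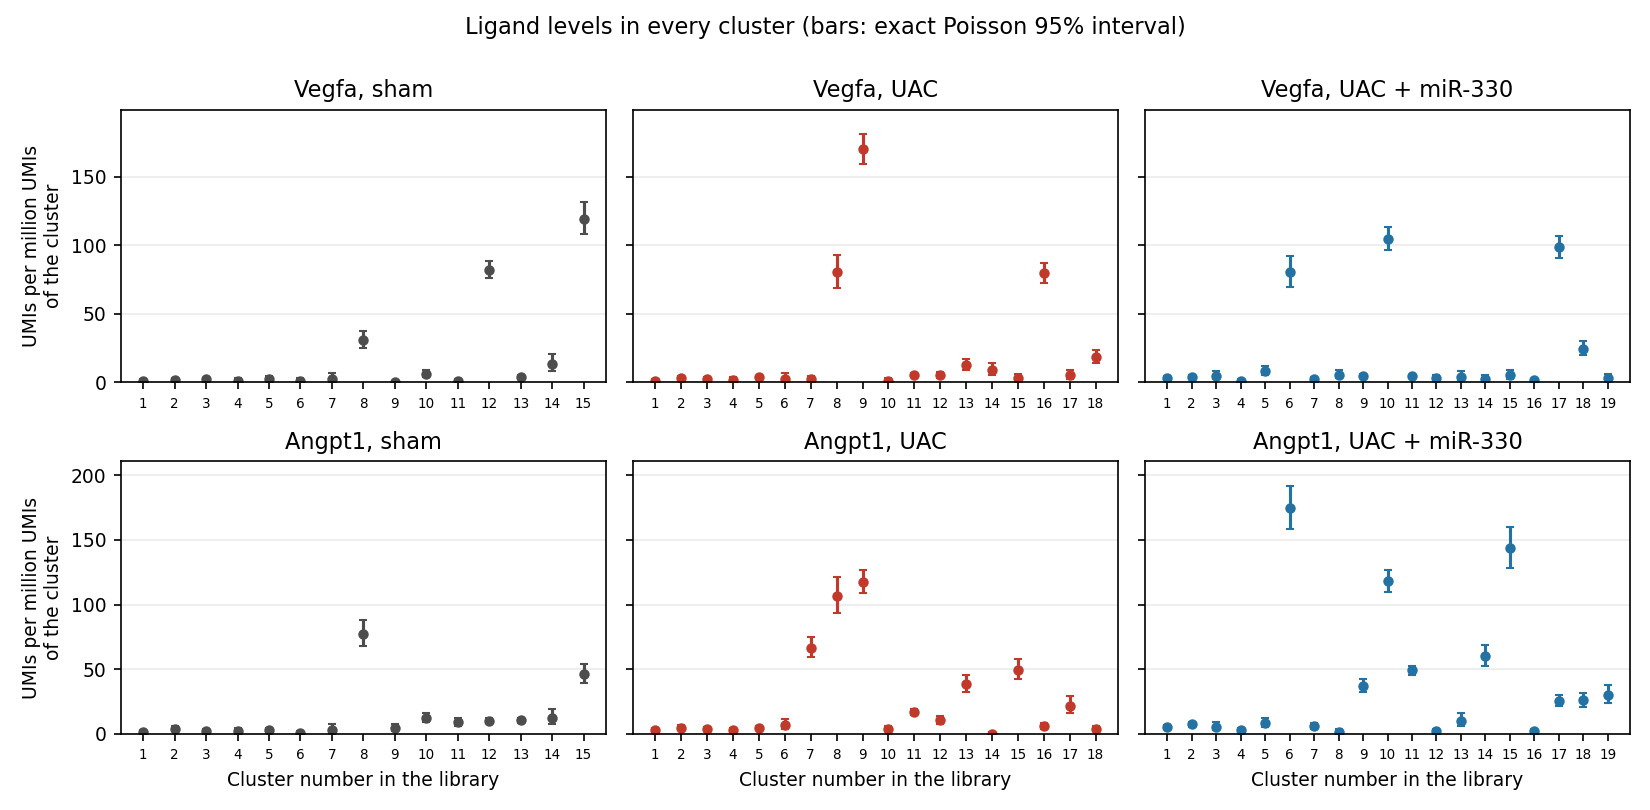
Level of Vegfa and Angpt1 (CPM, vertical axis) in every cluster of sham, UAC and UAC + miR-330, with bars for exact Poisson 95% intervals. Vegfa peaked at 119, 169.9 and 105 CPM in the Csf1r cluster, and the highest Angpt1 levels were 77.4, 117 and 174 CPM.

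Among the receptors, Kdr (ENSRNOG00000046829) encodes VEGF receptor 2, the main signalling receptor for VEGF on endothelium. In the sham library its levels were 7.09 CPM [4.54–10.6] in the Csf1r cluster and 4.99 CPM [3.64–6.68] in the Col2a1 cluster, with overlapping intervals. In the UAC library it was highest in the Siglech cluster, at 36.1 CPM [28.8–44.8], and next in the Dntt cluster, at 7.27 CPM [4.66–10.8]. For UAC + miR-330 the Siglech cluster had 27.8 CPM [22.2–34.3] and the Dntt cluster 19.4 CPM [15.1–24.5], and their intervals overlapped. The Siglech cluster held 64.6% [55.8–72.8] of its UMIs in UAC and 48.9% [41.3–56.5] in UAC + miR-330, and the Dntt cluster 18.5% [12.2–26.2] and 39.8% [32.5–47.4]. In sham the Col2a1 cluster held 52.9% [41.8–63.9], cluster 15 (highest in both Csf1r and Siglech) 28.2% [19.0–39.0] and the Car1 cluster 11.8% [5.79–20.6]. The Siglech clusters had 7 of 10 dendritic cell markers enriched in UAC and 5 of 10 in UAC + miR-330, beside 2 of 18 endothelial markers in each.

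Flt1 (ENSRNOG00000000940) encodes VEGF receptor 1, which binds VEGF tightly and also acts as a decoy. Its highest level was 9.65 CPM [7.73–11.9] in the Col2a1 cluster of sham, 12.4 CPM [8.92–16.9] in the Dntt cluster of UAC and 29.7 CPM [24.3–35.9] in the Dntt cluster of UAC + miR-330. The interval of the first cluster was apart from that of the next in each of the 3 libraries. These clusters held 80.6% [71.8–87.5], 62.1% [49.3–73.8] and 71.3% [63.4–78.4] of the gene's UMIs.

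Tie1 (ENSRNOG00000020173) encodes an orphan receptor that pairs with the angiopoietin receptor. It had UMIs in every cluster of each library. Its level was highest in the Dntt cluster, at 55.7 CPM [48.5–63.8] in sham, 58.2 CPM [50.2–67.0] in UAC and 85.2 CPM [75.9–95.3] in UAC + miR-330, and apart from the next cluster in each. The next were cluster 2 of sham at 31.5 CPM, cluster 1 of UAC at 34.0 CPM and cluster 1 of UAC + miR-330 at 38.2 CPM. In these, B lineage markers were the most often enriched, 5, 6 and 6 of 12. The Dntt cluster held only 16.6%, 13.4% and 14.7% of all Tie1 UMIs, and 62.0%, 63.5% and 63.5% lay outside the clusters highest in Col2a1, Dntt, Csf1r, Siglech, Cxcr2 and Car1. The Col2a1 cluster had 4.99, 0.836 and 1.19 CPM of it. Cdh5 also had its highest level in the Dntt cluster in both UAC libraries, but not in sham. Most Tie1 UMIs lay outside that cluster in each library.

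At the endothelial surface and junction, Cdh5 (ENSRNOG00000013324) lay in a single cluster of the sham library. The Col2a1 cluster held 60 of its 60 UMIs, 100% [94.0–100], at 6.65 CPM [5.08–8.56], and the other 14 clusters had 0. In the UAC library 6 of 7 UMIs were in the Dntt cluster, 85.7% [42.1–99.6], at 1.82 CPM [0.667–3.96], and 1 was in the Siglech cluster. In the UAC + miR-330 library 44 of 54 were in the Dntt cluster, 81.5% [68.6–90.7], at 12.2 CPM [8.87–16.4]. The Col2a1 cluster had 0 Cdh5 UMIs in both UAC libraries. With 7 UMIs the UAC library could not put its first cluster apart from the second.

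Emcn (ENSRNOG00000022910) was placed like Cdh5. The Col2a1 cluster of sham had 158 UMIs, 17.5 CPM [14.9–20.5] and 94.0% [89.3–97.1] of the gene's UMIs. The Dntt cluster of UAC had 43 UMIs, 13.0 CPM [9.43–17.6] and 84.3% [71.4–93.0]. The Dntt cluster of UAC + miR-330 had 108 UMIs, 30.0 CPM [24.6–36.2] and 89.3% [82.3–94.2]. The Dntt cluster of sham had 3 Emcn UMIs, and the Col2a1 clusters of both UAC libraries had 0. Emcn was at 0 in 9 of 15 clusters of sham, 12 of 18 of UAC and 13 of 19 of UAC + miR-330, and its first cluster was apart from the next in each library.

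Egfl7 (ENSRNOG00000019388) encodes a secreted matrix protein of vessels that guides tube formation. It was highest in the Dntt cluster of all 3 libraries, at 123 CPM [112–134] in sham, 116 CPM [105–128] in UAC and 79.1 CPM [70.2–88.8] in UAC + miR-330. The second level was in the Car1 cluster, at 13.1, 12.5 and 10.6 CPM, with intervals apart from the first. The Dntt cluster held 60.6% [57.1–64.1], 60.3% [56.4–64.1] and 55.6% [51.1–59.9] of its UMIs, and the Car1 cluster 19.3%, 27.1% and 31.6%. Egfl7 was the only member besides Tie1 with the Dntt cluster first in the sham library too.

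Over all clusters of a library, the question was whether these genes differed after UAC and after miR-330 AAV. A gene was called higher or lower when the ratio of its levels, with 0.5 UMI added to each count, was at least 2-fold and the Poisson intervals did not overlap. Genes entered with 10 UMIs or more, counting both libraries of a comparison. Both comparisons share the UAC library, so they are not independent of each other. For UAC against sham the median log2 ratio of all 16687 genes tested was −0.02, and for UAC + miR-330 against UAC that of 16939 genes was 0.13.

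Vegfa had 1404, 2012 and 1773 UMIs, or 18.1 CPM [17.1–19.0] in sham, 21.7 CPM [20.8–22.7] in UAC and 18.2 CPM [17.4–19.1] in UAC + miR-330. The UAC library was above both others with intervals apart, but by less than 2-fold, 1.20-fold (95% interval 1.12–1.29) against sham. The UAC + miR-330 library was 1.19-fold lower (1.12–1.27) than the UAC library. Angpt1 had 822, 2058 and 3173 UMIs, or 10.6 CPM [9.87–11.3], 22.2 CPM [21.3–23.2] and 32.6 CPM [31.5–33.8] in sham, UAC and UAC + miR-330. Each library stood above the one before it with intervals apart, and Angpt1 was called higher in UAC than in sham, by 2.10-fold (1.94–2.28). UAC + miR-330 over UAC gave a ratio of 1.47 (1.39–1.55), log2 0.55 beside the median of 0.13, which was not called. Stem and progenitor markers, a list that includes Angpt1, summed to 188, 235 and 296 CPM in the same libraries, with Cdk6 the most abundant at 154, 166 and 209 CPM and none at 0. Neutrophil markers, mostly S100a9, summed to 41344, 63973 and 45068 CPM and macrophage markers, mostly Lyz2, to 2234, 2988 and 3380.0 CPM, with none at 0. The part of these markers in the Angpt1 ratios was not tested.

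Of the receptors, Kdr had 85, 130 and 176 UMIs, or 1.09 CPM [0.874–1.35] in sham, 1.40 CPM [1.17–1.67] in UAC and 1.81 CPM [1.55–2.10] in UAC + miR-330. Neighbouring libraries had overlapping intervals, and Kdr was not called. Flt1 had 108, 66 and 150 UMIs, or 1.39 CPM [1.14–1.68], 0.713 CPM [0.551–0.906] and 1.54 CPM [1.31–1.81]. The UAC library was the lowest, 1.95-fold below sham (1.42–2.69), just short of the 2-fold limit, and Flt1 was called higher in UAC + miR-330 than in UAC, by 2.16-fold (1.61–2.94). That call was lost when libraries were scaled by the median ratio of genes, where the log2 ratio was 0.98. Tie1 had 1268, 1431 and 2085 UMIs, or 16.3 CPM [15.4–17.2], 15.4 CPM [14.7–16.3] and 21.4 CPM [20.5–22.4]. Sham and UAC overlapped, and the sign of their log2 ratio of −0.08 turned when the deposited mean counts were used in place of CPM. UAC + miR-330 stood above UAC by 1.39-fold (1.30–1.49), which was not called.

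Cdh5 had 60, 7 and 54 UMIs, or 0.773 CPM [0.590–0.994] in sham, 0.0756 CPM [0.0304–0.156] in UAC and 0.555 CPM [0.417–0.724] in UAC + miR-330. The UAC library was apart from both others, which overlapped. Cdh5 was called lower in UAC than in sham, by 10.2-fold (4.67–26.5), and higher in UAC + miR-330 than in UAC, by 7.35-fold (3.33–19.1). Emcn had 168, 51 and 121 UMIs, or 2.16 CPM [1.85–2.52], 0.551 CPM [0.410–0.724] and 1.24 CPM [1.03–1.49]. All 3 intervals were apart, with UAC the lowest. Emcn was called lower in UAC than in sham, by 3.93-fold (2.86–5.49), and higher in UAC + miR-330 than in UAC, by 2.26-fold (1.62–3.20). Egfl7 had 767, 635 and 513 UMIs, or 9.88 CPM [9.19–10.6], 6.86 CPM [6.33–7.41] and 5.27 CPM [4.83–5.75]. It was lower in each library than in the one before with intervals apart, but by 1.44-fold (1.30–1.60) and 1.30-fold (1.16–1.46), neither called. Chondrocyte markers, with Col2a1 the most abundant, summed to 7803, 3457 and 4223 CPM in sham, UAC and UAC + miR-330, and erythroid markers, with Hba-a1 the most abundant, to 2051, 916 and 2869 CPM. Both were lowest in UAC, with none at 0. B lineage markers (9996, 9035 and 11475 CPM, with none at 0) were lowest in UAC too. So were muscle markers (23.1, 8.98 and 13.0 CPM), with Acta1 and Ckm at 0 in sham, Myh2 and Ckm in UAC and Acta1 in UAC + miR-330. Osteogenic markers (8463, 4089 and 3899 CPM) and fibroblast markers (1463, 843 and 689 CPM) were lowest in UAC + miR-330, also with none at 0. The part of these markers in the Cdh5, Emcn and Flt1 values was not tested.

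**Figure D3:**
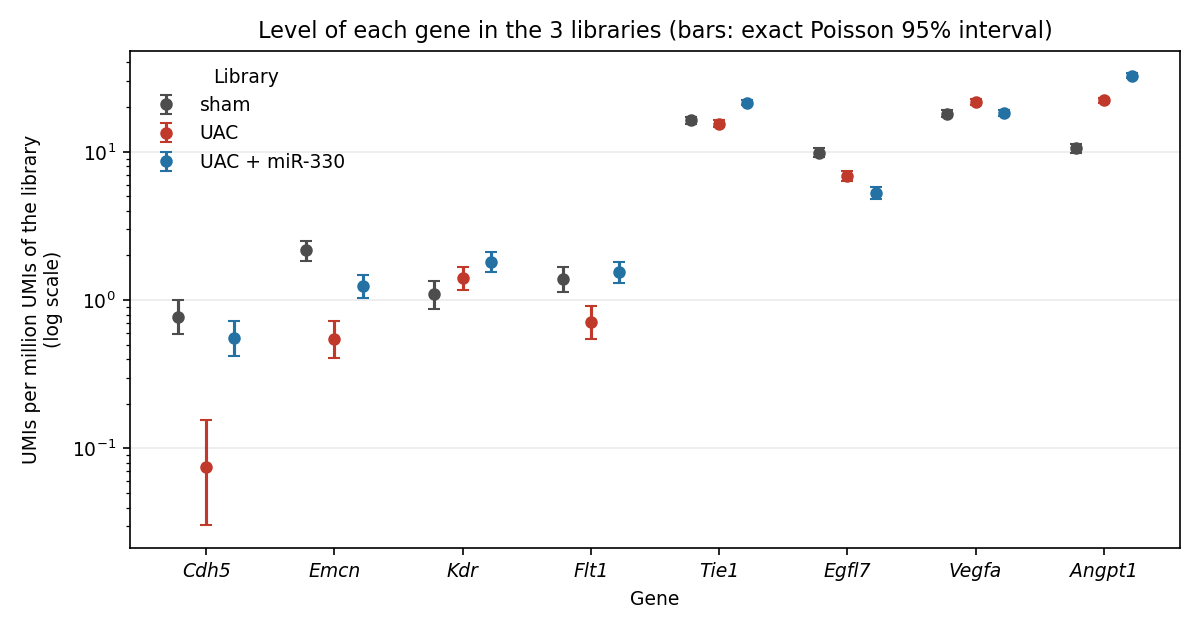
Level of each of the 8 genes over all clusters of sham, UAC and UAC + miR-330 (CPM, vertical axis), 1 point per library with the exact Poisson 95% interval. Cdh5, Emcn and Flt1 had their lowest point in UAC, at 0.0756, 0.551 and 0.713 CPM, and Angpt1 its lowest in sham, at 10.6 CPM.

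For UAC against sham, 1 of the 8 members was called higher, beside 2.43% of all genes tested, and 2 were called lower, beside 1.88%. The median log2 ratio of the members was −0.30. For UAC + miR-330 against UAC, 3 members were called higher (Cdh5, Emcn and Flt1), beside 2.35% of genes, and 0 lower, beside 0.992%, and their median was 0.51. All 8 passed the filter on UMIs in both comparisons. The members were selected on levels of these libraries, so nothing is read from these counts.

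Within the cluster highest in Col2a1 of each library, depth was 9019928 UMIs in sham, 5980171 in UAC and 5885282 in UAC + miR-330. Of the members, Cdh5, Emcn, Kdr, Flt1 and Tie1 were called lower in the UAC cluster. Of 16 endothelial surface and junction genes tested in it, 8 were called lower (0.603% of all genes were) and 1, Cldn5, higher (3.24%). This list includes Cdh5, Emcn and Egfl7, so its count carries no test. Clusters were made in each library alone, so the Col2a1 clusters need not hold the same cells. Emcn, for example, had 94.0% of its UMIs in the Col2a1 cluster of sham and 84.3% in the Dntt cluster of UAC. Cdh5 had 60 UMIs in sham and 0 in UAC, at least 13.3-fold lower against a floor of 3 UMIs in the UAC cluster. Emcn had 158 and 0, at least 34.9-fold lower, and Kdr had 45 and 0, at least 9.94-fold lower. Flt1 had 87 and 2, 28.8-fold lower (7.75–242), and Tie1 had 45 and 5, 5.97-fold lower (2.38–19.3). These genes were the 5 members called lower, out of 8 tested, beside 0.603% of 12606 genes, and 0 were called higher, beside 3.24%. The members were selected on levels in these clusters, and Cdh5, Emcn and Kdr passed the filter on UMIs through the sham cluster alone. Nothing is therefore read from these counts. Egfl7 had 103 and 36 UMIs, 1.90-fold lower (1.29–2.86), and was called lower when libraries were scaled by the median ratio, with a log2 ratio of −1.04. The median log2 ratio of all genes here was 0.15. With a minimum of 50 UMIs Kdr was not tested here.

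Of the ligands in the Col2a1 cluster, Vegfa had 740 UMIs in sham and 477 in UAC, which is 82.0 and 79.8 CPM and a ratio of 0.972 (0.865–1.09). Angpt1 had 92 and 35 UMIs, 1.74-fold lower in UAC (1.17–2.65), with intervals apart but not called. From UAC to UAC + miR-330, Angpt1 went from 35 to 150 UMIs and was called higher by 4.35-fold (3.00–6.49). Vegfa went from 477 to 579 UMIs, 1.23-fold (1.09–1.40), and was not called. Of the members 4 were tested in this comparison, with 1 called higher, beside 1.82% of 12398 genes, and 0 lower, beside 2.74%. Nothing is read from these counts of selected members either. Tie1 had 5 and 7 UMIs and Egfl7 36 and 37, both with overlapping intervals. Cdh5, Emcn and Kdr had 0 UMIs in both clusters and Flt1 had 2 and 0, so a difference was not detectable at this depth. The all-gene median log2 ratio of this comparison was 0.01.

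In the Dntt cluster Emcn, Flt1 and Kdr were higher in both UAC libraries than in sham, with intervals apart. Emcn went from 3 UMIs (0.792 CPM) in sham to 43 (13.0 CPM) in UAC, a ratio of 16.4 (5.26–82.9), and to 108 (30.0 CPM) in UAC + miR-330, a further 2.30-fold (1.60–3.36). Flt1 went from 5 to 41 and 107 UMIs, with ratios of 9.41 (3.72–30.5) and 2.39 (1.65–3.51). Kdr had 0, 24 and 70 UMIs, at least 9.18-fold higher in UAC than in sham against a floor of 3 UMIs and 2.67-fold (1.66–4.44) higher in UAC + miR-330 than in UAC. Cdh5 had 0, 6 and 44 UMIs, where the intervals of sham and UAC overlapped and UAC + miR-330 was 6.71-fold (2.85–19.3) above UAC. Tie1 had a ratio of 1.04 (0.854–1.28) and Egfl7 of 0.945 (0.823–1.08) for UAC over sham, so neither set sham and UAC apart there. For UAC + miR-330 over UAC the ratio of Tie1 was 1.46 (1.22–1.76) and that of Egfl7 0.681 (0.582–0.796). Dntt itself, which names the cluster, had 1522, 1329 and 1322 CPM. Angpt1 in this cluster was 5.50-fold (3.78–8.21) higher in UAC than in sham, with 1.21 (0.985–1.496) for UAC + miR-330 over UAC. Erg had 535, 641 and 718 CPM in the Dntt cluster.

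In the blood cell clusters the ligands gave these ratios. Vegfa in the Csf1r cluster was 1.42-fold (1.27–1.60) higher in UAC than in sham and had a ratio of 0.617 (0.558–0.683) in UAC + miR-330 against UAC. In the Cxcr2 cluster it was 2.61-fold (2.02–3.39) higher in UAC than in sham, with a ratio of 1.00 (0.812–1.23) in UAC + miR-330 against UAC. Angpt1 in the Csf1r cluster was 2.53-fold (2.13–3.03) higher in UAC than in sham, with a ratio of 1.01 (0.904–1.12) between UAC + miR-330 and UAC. In the Cxcr2 cluster its ratios were 1.38 (1.15–1.66) and 1.64 (1.39–1.93). In the Car1 cluster they were 1.62 (1.29–2.04) and 2.89 (2.50–3.36). Of the clusters compared here, Angpt1 was thus higher in UAC in the Csf1r, Cxcr2, Car1 and Dntt clusters and not in the Col2a1 cluster. Whether these ratios differ from each other was not tested. The clusters outside those highest in Col2a1, Dntt, Csf1r, Siglech, Cxcr2 and Car1 also held much of it. Together they had 184 Angpt1 UMIs (22.4%) in sham and 701 (34.1%) in UAC.

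The wider vessel genes were read from 10 lists by role, with 110 genes, of which 106 were matched. Ang was among those not analysed here. For UAC against sham 100 of the listed genes were tested, 6 were called higher (2.43% of all genes were) and 10 lower (1.88%), and their median log2 ratio was −0.12. For UAC + miR-330 against UAC 101 were tested, 10 were called higher (2.35% of all genes) and 1 lower (0.992%), and the median was 0.30. The lists include the 8 members, so these counts too carry no test. With scaling by the median ratio the second split was 7 higher and 3 lower, and with the deposited mean counts 14 and 0. Counts within the Col2a1 cluster include the members too and carry no test. There 3 of 91 were called higher (3.24% of all genes) and 19 lower (0.603%) for UAC against sham, with a median of −0.01. For UAC + miR-330 against UAC 8 of 70 were called higher (1.82%) and 2 lower (2.74%), with a median of 0.08. With 5 UMIs added this split was 5 higher and 2 lower, where Apln, Efnb2 and Nrp1 had log2 ratios of 0.90, 0.96 and 0.99.

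Among VEGF ligands 4 were tested for UAC against sham and 1 was called higher (2.43% of all genes were), Vegfc, the ligand of lymphatic vessels. It had 36, 109 and 196 UMIs in sham, UAC and UAC + miR-330, which is 0.464, 1.18 and 2.02 CPM, and the ratio of UAC to sham was 2.54 (1.73–3.81). Vegfb had 2.64, 3.96 and 3.65 CPM and Pgf, placental growth factor, had 1.57, 1.55 and 1.76 CPM, neither called. Of the 5 VEGF ligands tested for UAC + miR-330 against UAC, 0 were called (2.35% of all genes were higher and 0.992% lower). Vegfc was called higher with the deposited mean counts (log2 1.01). Of 7 angiopoietin ligands and relatives Angpt1 was the 1 called higher for UAC against sham (2.43% of all genes were), and 0 were called for UAC + miR-330 against UAC (2.35% higher and 0.992% lower). Angptl1 had 15.1, 14.0 and 19.7 CPM, Angptl2 had 7.98, 5.28 and 5.93 CPM and Angptl4, a hypoxia-induced lipase inhibitor, had 6.15, 8.17 and 4.12 CPM. Angptl4 was called lower in UAC + miR-330 than in UAC when scaled by the median ratio (log2 −1.11) and with a depth reduced by 137 genes of mitochondria, ribosomes, haemoglobins, immunoglobulins and S100a8/S100a9 (−1.05). In the Col2a1 cluster Angptl4 was called in both comparisons, with 26.6, 62.2 and 15.8 CPM in sham, UAC and UAC + miR-330.

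Of 24 other vessel-acting ligands tested, 2 were called higher in UAC than in sham (2.43% of all genes were) and 1 lower (1.88%). Hgf, the hepatocyte growth factor, had 1.65, 3.47 and 4.71 CPM in sham, UAC and UAC + miR-330 and was highest in the Csf1r cluster of each library. Fgf18, a growth factor of cartilage and bone, had 13, 58 and 32 UMIs, with 70.7% of those of UAC in cluster 17, where all 11 T and NK cell markers were enriched. It was called lower in UAC + miR-330 than in UAC when scaled by the median ratio (log2 −1.05), and Apln, the apelin gene, higher with the deposited mean counts (1.05). Ctgf, a matrix protein that binds VEGF, was called lower in UAC, with 232, 108 and 87.5 CPM, a call lost with the deposited mean counts (log2 −0.91). In the Col2a1 cluster alone it had 1930.4, 1601 and 1379.7 CPM and was not called. Ptn, pleiotrophin, was the 1 of 24 called lower in UAC + miR-330 against UAC (0.992% of all genes were), and 0 were called higher (2.35%). Ptn had 106, 111 and 47.4 CPM, and its call too was lost with the deposited mean counts (log2 −0.99). Cyr61 and Slit2 were not called, with 21.2, 20.8 and 15.3 CPM for Cyr61 and 11.2, 11.6 and 9.25 CPM for Slit2. Ctgf, Ptn and Cyr61 had over 90% of their UMIs in the Col2a1 cluster of each library.

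None of the 5 VEGF receptors and coreceptors was called for UAC against sham (2.43% of all genes were higher and 1.88% lower), and Flt1 was the 1 called higher for UAC + miR-330 against UAC (2.35%). Nrp1, a coreceptor for VEGF and semaphorins, had 19.0, 24.1 and 38.9 CPM in sham, UAC and UAC + miR-330. Its level was highest in the Dntt cluster, at 54.4, 93.0 and 204 CPM. Nrp2, the coreceptor of lymphatic endothelium, had 12.4, 16.6 and 15.2 CPM over the libraries. Tek, the angiopoietin receptor, had 66, 50 and 120 UMIs, and was called higher in UAC + miR-330 than in UAC by 2.29-fold (1.63–3.25). Its UMIs lay most in the same clusters as those of Emcn, but with smaller shares, 62.1% in the Col2a1 cluster of sham, 40.0% in the Dntt cluster of UAC and 54.2% in that of UAC + miR-330. Of 14 other vessel receptors 0 were called for UAC against sham (2.43% of all genes were higher and 1.88% lower). For UAC + miR-330 against UAC 0 were called lower (0.992% of all genes were) and 2 higher (2.35%). These were Aplnr, the apelin receptor, with 6, 5 and 21 UMIs, and Ednrb, an endothelin receptor, with 31, 33 and 83 UMIs. The Aplnr call was lost when scaled by the median ratio, with a log2 ratio of 1.77 and overlapping intervals, and it was not tested with a minimum of 50 UMIs. The most abundant of this list were not called, with 191, 278 and 247 CPM for the chemokine receptor Cxcr4 and 65.7, 60.0 and 73.8 CPM for the semaphorin receptor Plxnd1. S1pr1 had 33.3, 38.9 and 43.6 CPM and Notch1 21.6, 27.2 and 34.8 CPM.

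Of 16 endothelial surface and junction genes tested for UAC against sham, 5 were called lower (1.88% of all genes were) and 1 higher (2.43%), with a median log2 ratio of −0.56. Cdh5 and Emcn are among the 5 and were selected on these levels. Besides Cdh5 and Emcn, Plvap, which forms the diaphragms of vessel pores, had 201, 101 and 162 UMIs in sham, UAC and UAC + miR-330. Most Plvap UMIs lay in the Col2a1 cluster of sham (73.6%), the Csf1r cluster of UAC (57.4%) and the Dntt cluster of UAC + miR-330 (53.1%). Ptprb, the endothelial phosphatase that acts on VE-cadherin, had 71, 23 and 72 UMIs, and Ecscr had 18, 4 and 15. Ecscr, with a log2 ratio of −2.29, was not tested with a minimum of 50 UMIs. The gene called higher in UAC was the tight junction gene Cldn5, with 15, 47 and 42 UMIs, and 59.6% of those of UAC lay in the Col2a1 cluster. For UAC + miR-330 against UAC 4 of 16 were called higher (2.35% of all genes were) and 0 lower (0.992%), and the median was 0.65. The 4 were Cdh5, Emcn, Ptprb and Clec14a, the last with 22, 14 and 36 UMIs. The Clec14a call was lost when scaled by the median ratio, with a log2 ratio of 1.13 and overlapping intervals, and with the reduced depth, at 1.20. Eng, a coreceptor for TGF-beta, had 15.9, 15.8 and 15.2 CPM and Icam2 18.2, 22.0 and 19.4 CPM, neither called. Ptprb had 88.7% of its UMIs in the Col2a1 cluster of sham, 39.1% in the Dntt cluster of UAC and 90.3% in that of UAC + miR-330.

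Among endothelial transcription factors 10 were tested for UAC against sham, and 3 were called lower (1.88% of all genes were) and 1 higher (2.43%). The lower ones were the SOXF factors of vessels, Sox7 with 12, 0 and 3 UMIs in sham, UAC and UAC + miR-330, Sox17 with 21, 5 and 20, and Sox18 with 30, 7 and 4. These 3 are under 50 UMIs in 2 libraries together and were not tested with that minimum. Gata2, a factor of endothelium and of blood progenitors, was called higher in UAC, with 4.69, 9.62 and 12.9 CPM. None of 9 was called for UAC + miR-330 against UAC (2.35% of all genes were higher and 0.992% lower). With the deposited mean counts, however, Sox17 (log2 2.06) and Tal1 (1.12) were called higher. The most abundant factors were not called and are also used by blood cells, with 243, 263 and 366 CPM for Fli1, 184, 229.6 and 279 CPM for Ets1, 68.1, 70.1 and 51.2 CPM for Lyl1 and 54.5, 38.8 and 50.3 CPM for Hhex.

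Inhibitors of vessel growth had 10 genes tested in each comparison. For UAC against sham 1 was called lower (1.88% of all genes were) and 0 higher (2.43%). For UAC + miR-330 against UAC 2 were called higher (2.35% of all genes were) and 0 lower (0.992%). Sparc, a matrix protein that binds VEGF, was called lower in UAC than in sham, with 4369, 1873 and 1858 CPM in sham, UAC and UAC + miR-330. In the Col2a1 cluster alone it had 36634, 28315 and 29757 CPM and was not called. The part of the chondrocyte markers in the Sparc and Ctgf values was not tested. Thbs1, thrombospondin 1, was called higher in UAC + miR-330 than in UAC by 2.77-fold (2.48–3.11), with 3.45, 4.56 and 12.6 CPM. Tnmd, the tendon relative of chondromodulin, was called higher there too, with 2, 11 and 47 UMIs. Cnmd, chondromodulin itself, which keeps cartilage free of vessels, had 18.3, 10.9 and 17.1 CPM and was not called. Serpinf1 had 89.6, 66.3 and 39.9 CPM and Dcn, decorin, 49.1, 36.9 and 28.1 CPM, also not called. Cnmd, Serpinf1, Sparc and Dcn had over 90% of their UMIs in the Col2a1 cluster of each library.

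Over all clusters, 0 of 8 hypoxia regulators that set Vegfa transcription were called for UAC against sham (2.43% of all genes were higher and 1.88% lower). For UAC + miR-330 against UAC 0 of 9 were called (2.35% of all genes were higher and 0.992% lower). Within the Col2a1 cluster 0 of 8 were called for UAC against sham (3.24% of all genes were higher and 0.603% lower). There 1 of 8, Egln3, was called higher for UAC + miR-330 against UAC (1.82% of all genes were) and 0 lower (2.74%). Hif1a, the oxygen-labile subunit of HIF-1, had 134, 126 and 155 CPM in sham, UAC and UAC + miR-330. It was highest in the Col2a1 cluster, at 522, 517 and 775 CPM. Its partner Arnt had 34.6, 43.5 and 57.1 CPM. Vhl, which marks the subunit for degradation, had 25.7, 26.9 and 26.3 CPM and the prolyl hydroxylase Egln2 37.5, 31.6 and 27.4 CPM.

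The genes whose levels went most like those of a member across the 52 clusters of the 3 libraries were found by Pearson correlation of log2(CPM + 1) among 14987 genes. The clusters share libraries, depth and cell types, so r is a description. For Cdh5 they were Cyyr1 (r = 0.958), Adgrf5 (0.930), Adgrl4 (0.924), Emcn (0.922) and Ptprb (0.912). Emcn had Cyyr1 (0.943), Cdh5 (0.922), Adgrf5 (0.914), Adgrl4 (0.908) and Ptprb (0.868). Flt1 had Cyyr1 (0.911), Adgrl4 (0.903), Cdh5 (0.879), Cd34 (0.878) and Emcn (0.857). Cdh5 and Emcn thus had each other among their nearest genes, and Flt1 had both of them. Kdr was nearest to AABR07008030.1 (0.899), Esam (0.899), Elovl7 (0.896), Trim55 (0.882) and Siglech (0.862). Tie1 was nearest to Runx1 (0.924), Etv6 (0.917), Whrn (0.912), Arl5c (0.903) and Mtss1 (0.903), of which Runx1 and Etv6 are transcription factors of blood cells. Egfl7 was nearest to AABR07006538.1 (0.924), Pxdn (0.921), Flrt1 (0.906), Tead2 (0.906) and Rfx8 (0.874). The highest r of each ligand was below that of every member that is not a ligand. The values of Vegfa still overlapped those of Emcn, Kdr, Flt1 and Egfl7, and only those of Angpt1 were lower throughout. Vegfa was nearest to Atf3 (0.884), Ctsb (0.884), Dap (0.876), Sh3pxd2b (0.859) and AC118957.2 (0.855), and Angpt1 to Ikbke (0.827), AABR07041096.1 (0.820), Cd59 (0.810), Plekhb2 (0.803) and Smox (0.802). Between the ligands r was 0.57, and between Vegfa and Tie1 it was −0.52.

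The UAC + miR-330 library differs from the UAC library by the injected microRNA, whose rat mature sequences are shown, from RefSeq on build GRCr8, since they set the groups apart. The 5p arm lies at chr1:87961227-87961248 and the 3p arm at chr1:87961266-87961288, both on the plus strand, and bases 2 to 8, the seed that pairs with target RNA, are in capitals. The arms have different seeds. MicroRNA levels and target sites were not analysed here.
rno-miR-330-5p: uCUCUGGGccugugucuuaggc
rno-miR-330-3p: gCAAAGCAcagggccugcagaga

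Emcn and Flt1 were lowest in UAC and had most of their UMIs in the same cluster of each library, and their promoters, 250 bases before to 50 after the start, are shown for that reason, from RefSeq on build GRCr8. Of the 8 members 6 had a promoter in that table, with 8 promoters in all, and Cdh5 and Angpt1 had none matched. The letters GGAAG, the core bound by ETS factors such as Erg, are in capitals on either strand (CTTCC where it is on the other). The Emcn promoter at chr2:228564289-228564588 (plus strand) holds it 2 times and the Flt1 promoter at chr12:12333180-12333479 (plus strand) 3 times. GGAAG is also in 70.1% of all 33469 promoters of 300 bases, so its presence does not set these genes apart, and a match of letters is not a binding site. Kdr has it 1 time, Tie1 3 times, Egfl7 3 and 0 times and Vegfa 0 and 2 times in their promoters. The letters ACGTG, the core bound by HIF factors, are in 19.3% of all promoters and in 0 of the 8 members' promoters.
Emcn: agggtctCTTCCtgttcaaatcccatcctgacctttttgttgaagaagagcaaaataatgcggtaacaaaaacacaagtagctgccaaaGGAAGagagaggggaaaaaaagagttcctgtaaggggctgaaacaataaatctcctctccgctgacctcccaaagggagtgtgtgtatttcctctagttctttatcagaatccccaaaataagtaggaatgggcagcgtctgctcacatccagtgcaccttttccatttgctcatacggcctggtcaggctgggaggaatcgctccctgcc
Flt1: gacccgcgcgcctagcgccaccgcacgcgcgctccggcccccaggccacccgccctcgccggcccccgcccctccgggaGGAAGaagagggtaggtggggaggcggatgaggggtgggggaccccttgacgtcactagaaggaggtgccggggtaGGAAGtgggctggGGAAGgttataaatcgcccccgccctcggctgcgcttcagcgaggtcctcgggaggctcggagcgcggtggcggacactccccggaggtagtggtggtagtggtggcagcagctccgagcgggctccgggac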

How the data were processed

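The study's single-cell RNA libraries, 1 per condition, were read from 3 deposited tables in the layout of Cell Ranger's graph-based clustering. The submitters' processing notes name Cell Ranger 7.0, STAR and Seurat 4.0.1; the genome build of the tables is not given in the sources used here. The deposited mean counts are a signal normalized by the authors' software: UMI counts summed over a cluster's cells and scaled by a constant of that cluster. The log2 fold changes and adjusted p-values beside them compare each cluster with the other clusters of its library, and they were not used. Counts were recovered by dividing each mean by the smallest mean above 0 of its column, and 100% came out whole, within 1e-07. UMIs of gene names on several identifiers were added. Depth was 77668015 (sham), 92629658 (UAC) and 97255383 (UAC + miR-330) UMIs, so that 3 UMIs are 0.0386, 0.0324 and 0.0308 CPM.

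Levels, shares and intervals were computed with Python 3.11.15, numpy 2.4.6, pandas 2.3.3 and scipy 1.17.1, and plots drawn with matplotlib 3.10.9. Ratios use 0.5 UMI added, a minimum of 10 UMIs in 2 libraries and 2-fold with intervals apart; the calling step was tested on simulated data. Intervals of ratios are exact conditional binomial ones without the added 0.5 UMI. No test between conditions was made.

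The members and gene lists were chosen with earlier results of these data known. Named genes are the 8 members, up to 4 genes with the most UMIs of each list and every listed gene called over all clusters; clusters named by number hold at least 10% of a member's UMIs, besides cluster 17 of UAC and cluster 15 of UAC + miR-330, named after they were seen. Angptl4 and Egln3 in the Col2a1 cluster and the values of Erg, Rgs5, Des and Dcstamp were named after they were seen. Genes most like a member are the 5 with the highest correlation among genes with at least 50 UMIs. Alternatives were the deposited mean counts, median ratio scaling, a reduced depth without 137 mitochondrial, ribosomal, haemoglobin, immunoglobulin and S100a8/S100a9 genes, minimums of 50 and 1 UMIs, 5 UMIs added, 1.5-fold and shares that weigh clusters alike. Doublets and free RNA cannot be treated in cluster sums and were left in.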

Additional observations from a re-analysis of the deposited data

Results flagged for a closer look

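Each of the following genes was above the earlier library in at least 1 cluster and below it in at least 1 other, with intervals apart, and whether the clusters differ in this was not tested. In UAC against sham, Emcn was 13.0 against 0.792 CPM in the Dntt cluster and 0 against 17.5 CPM in the Col2a1 cluster. Flt1 was 12.4 against 1.32 CPM in the Dntt cluster and 0.334 against 9.65 CPM in the Col2a1 cluster. Kdr was 7.27 against 0 CPM in the Dntt cluster, 0 against 4.99 CPM in the Col2a1 cluster and 1.02 against 7.09 CPM in the Csf1r cluster. The Csf1r cluster of sham is also its cluster highest in Siglech, and in UAC these are separate clusters, so the Kdr values of the Csf1r clusters need not be from the same cells. Angpt1 was 117 against 46.4 CPM in the Csf1r cluster, 49.4 against 8.98 CPM in the Dntt cluster and 5.85 against 10.2 CPM in the Col2a1 cluster. It was also above sham in the Cxcr2 cluster, 107 against 77.4 CPM, and in the Car1 cluster, 17.0 against 10.5 CPM. In UAC + miR-330 against UAC, Vegfa was 98.4 against 79.8 CPM in the Col2a1 cluster and 105 against 169.9 CPM in the Csf1r cluster.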

How the results depend on the processing

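No paired analysis was possible because each condition had 1 library. Counts of called vessel list genes stayed within 1.5 times the reported count in 24 of 28 alternatives. At 1.5-fold they were 28 for UAC against sham (16 at 2-fold), 24 for UAC + miR-330 against UAC (11) and 22 for the latter in the Col2a1 cluster (10), besides 33, with 11 higher and 22 lower, for UAC against sham there (22, with 3 and 19), since a lower limit admits more genes. With a minimum of 50 UMIs the count for UAC against sham in the Col2a1 cluster was 8 (22), since fewer genes were tested, and over all clusters the split was 6 higher and 6 lower in place of 6 and 10. Scaling by the median ratio gave 7 higher and 3 lower for UAC + miR-330 against UAC (10 and 1). The deposited mean counts gave 14 higher and 0 lower for it, 7 higher and 17 lower in the Col2a1 cluster for UAC against sham (3 and 19) and 11 higher and 1 lower there for UAC + miR-330 against UAC (8 and 2). They shift all log2 ratios over whole libraries by 0.20 and 0.24 in the 2 comparisons, and the median ratio shifts them by 0.03 and −0.13.

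Of 48 alternative log2 ratios of members (median ratio, reduced depth and 5 UMIs added) 45 moved by less than counting error. The deposited mean counts are not among the 48, and with them Tie1 turned sign for UAC against sham. Scaled by the median ratio, UAC + miR-330 against UAC gave 0.34 for Tie1, −0.38 for Vegfa and 0.43 for Angpt1.

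When clusters weigh alike, 16 of 24 shares moved beyond counting error, by the construction of the share. In sham they were 83.1% for Emcn, 36.1% for Kdr, 69.1% for Flt1 and 30.5% for Vegfa in cluster 12, with cluster 15 first for Kdr (51.3%) and Vegfa (44.4%), 20.0% for Tie1 and 77.3% for Egfl7 in cluster 11 and 38.8% for Angpt1 in cluster 8. In UAC they were 78.1% for Kdr in cluster 14, 12.2% for Tie1 in cluster 1, 80.6% for Egfl7 in cluster 15, and 41.7% for Vegfa and 25.2% for Angpt1 in cluster 9. In UAC + miR-330 they were 10.2% for Tie1 in cluster 1, 77.0% for Egfl7 in cluster 14, 28.7% for Vegfa in cluster 10 and 6.89% for Angpt1 in cluster 11. The first cluster was then the Dntt cluster for Tie1 in both UAC libraries (20.8% and 22.7%) and cluster 6 for Angpt1 in UAC + miR-330 (24.4%). Cdh5 in the UAC library rests on 7 UMIs, which leaves its place among clusters uncertain.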
